A study of Mus with 2 samples.

Results

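Pericytes are mural cells that wrap capillaries beneath the endothelium, and smooth muscle cells take that place around larger vessels. They hold to the endothelium through PDGF-B and its receptor PDGFRβ and through Notch signals, set vessel tone through potassium and calcium channels and cyclic GMP, and lay down basement membrane with the endothelium. Brown adipose tissue is densely supplied with capillaries, and its pericytes carry receptors for circulating hormones such as GIP. Pericyte and mural nuclei of interscapular brown adipose tissue (iBAT) were chosen by a rule on their own transcripts. A nucleus was taken when at least 3 of 12 mural marker genes (*Trpc6*, *Tbx5*, *Galr1*, *Lin7a*, *Abcc9*, *Gipr*, *Stac*, *Rgs6*, *Pdgfrb*, *Notch3*, *Kcnj8* and *Rgs5*) had 1 or more unique molecular identifiers (UMIs, each counting 1 captured transcript), when at most 1 of 7 exclusion genes of endothelium, fibroblasts, macrophages and T cells was detected, and when mitochondrially encoded UMIs made up at most 25% of its total. The rule found 559 of 18266 nuclei, 360 in one library and 199 in the other.

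The libraries came from single-nucleus RNA sequencing of frozen iBAT of C57BL/6 mice at 8 weeks of age on normal chow. The *Wtap* flox/flox library has the floxed alleles alone, and the *Wtap*-BKO library has both the floxed alleles and UCP1-iCre. *Wtap* encodes a subunit of the m6A RNA methyltransferase, and the *Ucp1* promoter that drives this Cre is a brown adipocyte promoter, so the nuclei described here are not the ones in which the Cre is meant to act. Each library was 1 pool of 4 mice, so each genotype had 1 sample, genotype and library cannot be told apart, and no test between genotypes was possible. Intervals given below cover counting error only, at 95%, and not the spread between mice.

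The members held 376445 UMIs in the *Wtap* flox/flox library (median 826 per nucleus) and 285579 in the other (median 1063), and levels are given as UMIs per 1000000 UMIs of the members (CPM). The median mitochondrial share of the members was 3.62% and 4.89%, against 3.47% and 8.44% over all nuclei of each library. *Wtap* (ENSMUSG00000060475) had 20 and 12 UMIs in the members, 53.1 and 42.0 CPM, a log2 ratio of -0.34 (-1.504 to 0.76). In all other nuclei its level was 51.4 and 52.9 CPM. Only an exon inside the gene is floxed, which counts from the 3' end need not show, so these values check neither label, and the second library is called the library labelled *Wtap*-BKO. Log2 ratios are positive where that library was the higher. The libraries shared 20 cell barcodes, of which 2 were members in *Wtap* flox/flox and 0 in the other.

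Members made up 3.79% of nuclei in the *Wtap* flox/flox library (360 of 9494, exact binomial interval 3.42 to 4.196%) and 2.27% in the library labelled *Wtap*-BKO (199 of 8772, 1.97 to 2.602%), a log2 ratio of -0.74 (-0.998 to -0.49). The direction of that difference depended on which nuclei were kept. Among nuclei with at most 10% mitochondrial UMIs the shares were 4.00% and 3.31%, and with at most 5% they were 3.84% (244 of 6360) and 4.62% (102 of 2210), the opposite order. The mitochondrial limit removed a larger part of the library labelled *Wtap*-BKO, in which 74.8% of nuclei were over 5% against 33.0% in *Wtap* flox/flox. Among the members the corresponding values were 48.7% and 32.2%.

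A second way to count was against endothelial nuclei, the neighbours of pericytes on the capillary. There were 48.6 members per 100 endothelial nuclei in *Wtap* flox/flox (740 endothelial nuclei) and 30.2 in the library labelled *Wtap*-BKO (658). With at most 5% mitochondrial UMIs the values were 80.3 and 43.0. Among nuclei of 1000 or more UMIs the order was the opposite, 39.9 and 48.6. Fibroblast nuclei numbered 138 and 422 and immune nuclei 198 and 1316, and both classes enter the total over which the share was taken. Fewer mural cells, and fewer nuclei recovered or recognised per cell, cannot be told apart in these counts.

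**Figure D1:**
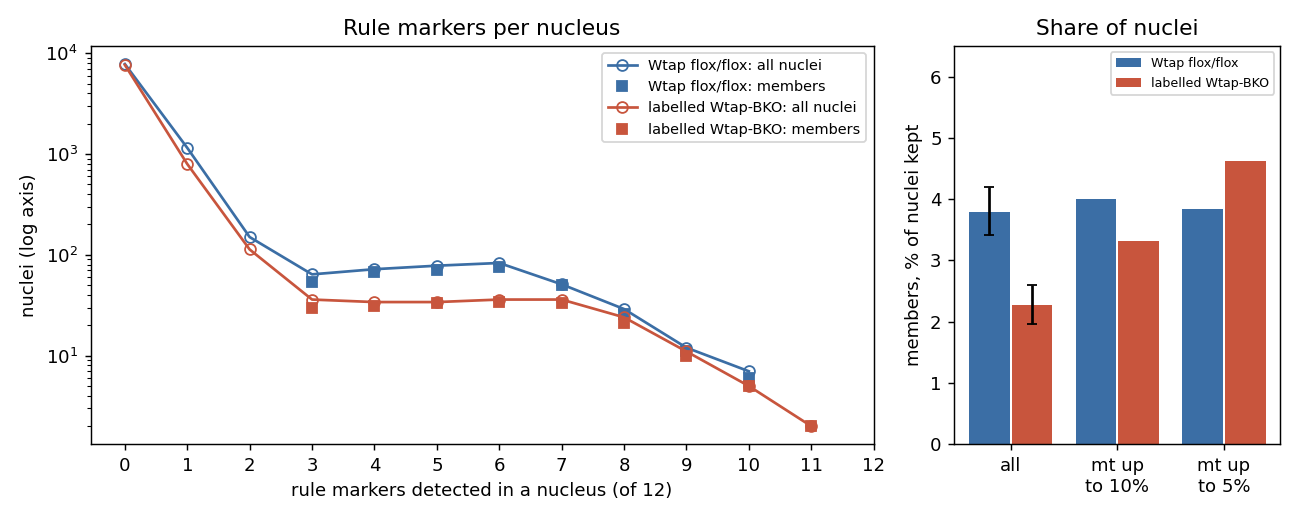
Left, number of nuclei (log axis) by how many of the 12 rule markers were detected, for all nuclei (circles) and members (squares) of each library. Right, members as a percentage of the nuclei kept, with bars from 0, for all nuclei (exact binomial 95% intervals), and for nuclei with at most 10% and at most 5% mitochondrial UMIs (no intervals drawn). The library labelled Wtap-BKO is lower over all nuclei (2.27% against 3.79%) and higher at the 5% limit (4.62% against 3.84%).

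The number of rule markers per nucleus did not decline steadily. In *Wtap* flox/flox, 1150 nuclei had 1 marker, 150 had 2 and 64 had 3, after which the count climbed to 83 nuclei with 6. In the library labelled *Wtap*-BKO, 795 nuclei had 1 marker and 113 had 2, and between 34 and 36 nuclei had each number from 3 to 7. Members carried a median of 5 and 6 markers, and after every nucleus was thinned at random to 500 UMIs the medians were 4 and 3. Most nuclei had no marker or a single one, and the edge of the rule lay where *Wtap* flox/flox had its fewest nuclei below 7 markers.

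Nuclei near that edge differed in what else they carried. The 54 members with exactly 3 markers in *Wtap* flox/flox had 6976 CPM over the list of other pericyte genes, against 9566 CPM in the 306 members with more markers and 5051 CPM in the 122 nuclei with 2 markers that otherwise met the rule. In the library labelled *Wtap*-BKO the same values were 5847, 9477 and 5292 CPM, over 30, 169 and 90 nuclei. Fibroblast marker genes were at 5507 CPM in its 30 members with 3 markers and 10180 CPM in its 90 nuclei just outside, against 1531 CPM in members with more markers. The corresponding *Wtap* flox/flox values were 641, 1855 and 781 CPM.

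The rule markers chose the members, so their levels are a description. *Rgs6*, a regulator of G-protein signalling, had 1918 CPM (722 UMIs) and 1733 CPM (495 UMIs). *Abcc9*, which encodes the SUR2 subunit of vascular ATP-sensitive potassium channels, had 1349 CPM (508 UMIs) and 1166 CPM (333 UMIs). *Notch3*, the Notch receptor of mural cells, had 1344 CPM (506 UMIs) and 1229 CPM (351 UMIs). These were the 3 highest of the 12 in both libraries, and *Rgs5*, the usual pericyte marker of its family, came next in *Wtap* flox/flox at 978 CPM and was at 819 CPM in the other library. In all other nuclei *Rgs6* stood at 30.7 and 20.9 CPM and *Abcc9* at 16.6 and 10.0 CPM. UMI counts here are not corrected for gene length, so the order of genes is an order of captured transcripts.

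The other rule markers lay below these 3. *Pdgfrb*, the receptor through which endothelial PDGF-B recruits pericytes, had 871 and 935 CPM, and *Tbx5*, a T-box transcription factor, had 728 and 711 CPM. *Gipr*, the receptor of the gut hormone GIP, had 361 and 312 CPM, and *Galr1*, a galanin receptor, had 249.7 and 196 CPM. *Kcnj8* encodes Kir6.1, the pore that SUR2 regulates, and had 138 and 214 CPM. Its gene spans chromosome 6, 142564837 to 142571614, beside *Abcc9* at 142587862 to 142702766 (RefSeq, GRCm38, the assembly also called mm10), and the spans do not overlap.

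Each of the 12 differed by less than 2-fold between the libraries. The median log2 ratio of the 12 markers was -0.21, with 10 below 0 and 2 above, and 0 passed 2-fold in either direction. Over all 5909 genes with at least 20 UMIs in the members, 8.02% were at least 2-fold higher and 4.72% at least 2-fold lower. The largest differences were in *Stac*, which encodes an adaptor of voltage-gated calcium channels, at 332 CPM (125 UMIs) and 179 CPM (51 UMIs) with a log2 ratio of -0.89 (-1.39 to -0.41), and in *Lin7a*, a scaffold protein of cell junctions, at 584 CPM (220 UMIs) and 336 CPM (96 UMIs) with -0.80 (-1.16 to -0.45). *Trpc6*, a receptor-operated cation channel, was at 542 and 385 CPM, a log2 ratio of -0.49 (-0.84 to -0.15). *Kcnj8* went the other way, at 0.63 (0.071 to 1.19), on 52 and 61 UMIs. *Stac* was at -0.94 (-1.58 to -0.34) in members with at most 5% mitochondrial UMIs and at -0.27 (-1.19 to 0.63) in the rest. In the same sets *Lin7a* was at -0.46 and -1.13, *Trpc6* at -0.60 and -0.082, and *Kcnj8* at 0.85 and 0.50. *Abcc9* (-0.34 and 0.30), *Rgs5* (-0.56 and 0.20), *Galr1* (-0.91 and 0.40), *Rgs6* (-0.12 and 0.27) and *Notch3* (-0.055 and 0.041) turned sign between them. *Abcc9* and *Rgs5*, whose intervals lay below 0, were at 0.043 and 0.015 once members with 3 or more genes of the fibroblast, macrophage or T cell lists were left out, and the median of the 12 was then -0.00723. Among members of 1000 or more UMIs it was 0.00877.

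**Figure D2:**
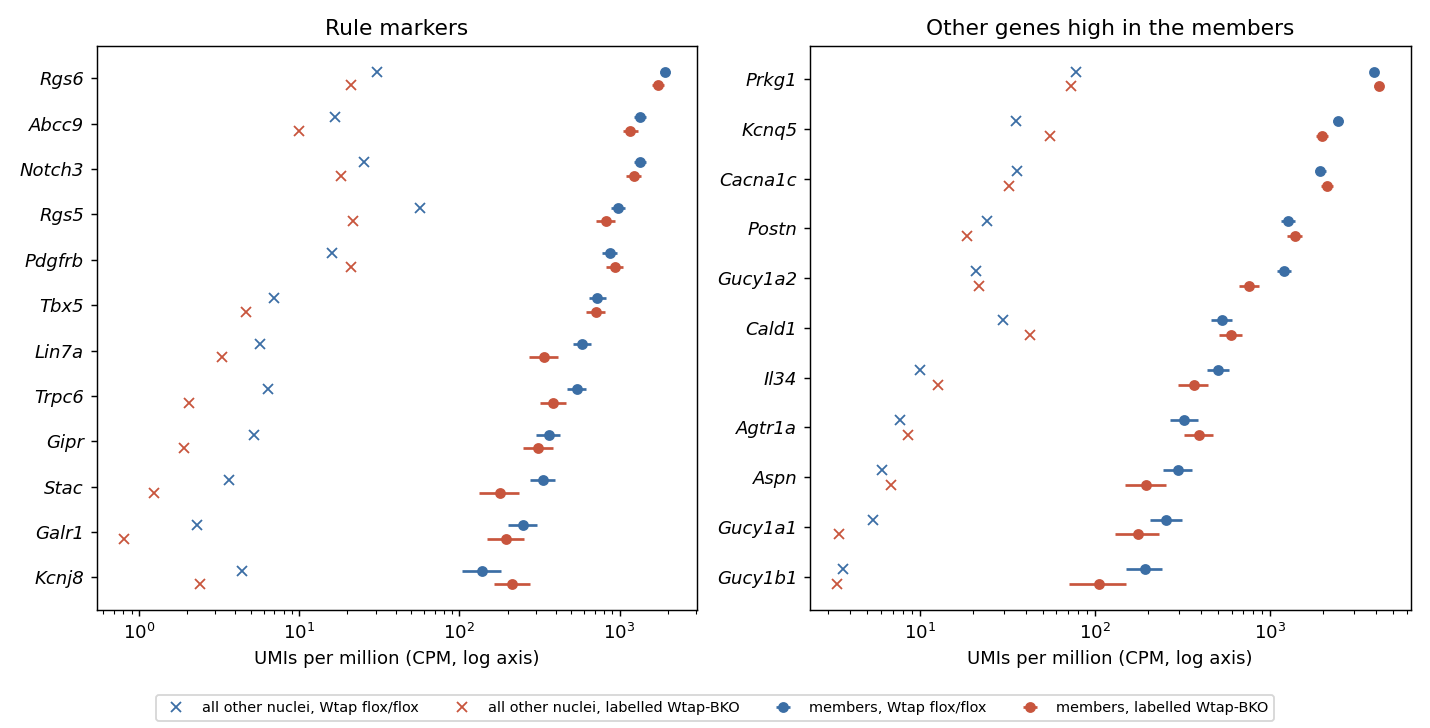
Level of each gene in CPM (log axis) in members (dots, exact Poisson 95% intervals) and in all other nuclei (crosses), for the Wtap flox/flox library and the library labelled Wtap-BKO. Every dot lies to the right of its cross by more than 10-fold. Within the members the libraries stand furthest apart on the log scale for Stac, Gucy1b1 and Lin7a.

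Beyond the rule, the members shared a wider set of genes. Of 5909 genes with at least 20 UMIs in the members, 718 (12.2%) were at least 2-fold higher in members than in all other nuclei in both libraries, which is read here as a description because the same nuclei were used to choose the members. On the list of other pericyte genes, 19 of 23 were among them. *Prkg1*, which encodes the cyclic GMP-dependent kinase of vascular relaxation, had the most UMIs of the cyclic nucleotide signalling list, at 3886 CPM (1463 UMIs) and 4160.0 CPM (1188 UMIs). *Postn*, which encodes the matrix protein periostin, had 1264 CPM (476 UMIs) and 1373 CPM (392 UMIs), and *Aspn*, a small leucine-rich proteoglycan, 298 and 196 CPM. *Art3*, a member of the ADP-ribosyltransferase family, had 584 and 543 CPM, and *Ebf1*, an early B-cell factor of adipose stromal lineages, 2378 and 2094 CPM. *Prkg1* was 5.65 log2 units above other nuclei in *Wtap* flox/flox and 5.84 in the library labelled *Wtap*-BKO, and *Ebf1* only 0.62 and 0.82.

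The 15 genes with the largest enrichment in the lower of the libraries included 8 rule markers. Others were *Gm32067* and *9330188P03Rik*, *Gabra2*, a GABA-A receptor subunit, *Kcnd3*, a voltage-gated potassium channel, *Nostrin*, which traffics endothelial nitric oxide synthase, and *Elmod1*. *Kcnd3* had 213 CPM (80 UMIs) and 186 CPM (53 UMIs) in the members and 3.17 and 2.42 CPM elsewhere. *Nostrin* had 249.7 CPM (94 UMIs) and 284 CPM (81 UMIs) in the members and 4.52 and 4.69 CPM elsewhere. Between libraries the intervals of the genes named here beside the rule markers spanned 0.

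Several ion channels that set membrane potential and calcium entry were well counted in the members. *Kcnq5*, a voltage-gated potassium channel, had 2436 CPM (917 UMIs) and 1971 CPM (563 UMIs), a log2 ratio of -0.31 (-0.46 to -0.15). Within members with at most 5% mitochondrial UMIs it was at -0.26 (-0.45 to -0.070) and within the rest at 0.055 (-0.23 to 0.34), both nearer to 0. *Cacna1c*, the pore of the L-type calcium channel, had 1923 CPM (724 UMIs) and 2112 CPM (603 UMIs), a log2 ratio of 0.13 (-0.024 to 0.29). *Ano1*, a calcium-activated chloride channel, had 704 and 798 CPM, a log2 ratio of 0.18 (-0.080 to 0.44). Over the 17 channel and calcium handling genes with 20 UMIs the median log2 ratio was -0.074, and 0 were 2-fold higher or lower, beside 8.02% and 4.72% of all genes. *Cacna2d1*, an auxiliary subunit of calcium channels, was the highest at 0.87 (0.30 to 1.44), and *Itpr2*, an inositol trisphosphate receptor, the lowest at -0.96 (-1.36 to -0.58). *Itpr2* was higher in other nuclei (1386 and 724 CPM) than in members (526 and 269.6 CPM), with a log2 ratio there of -0.94. Among members of 1000 or more UMIs the median of the list was 0.298.

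Of 14 receptors for vasoactive peptides and hormones with 20 UMIs, 8 had a log2 ratio above 0 and 6 below. *Agtr1a*, the angiotensin II type 1a receptor, had 321 CPM (121 UMIs) and 389 CPM (111 UMIs), with a log2 ratio of 0.27 (-0.11 to 0.66), and stood 5.38 log2 units above other nuclei in *Wtap* flox/flox. *Ednra*, the endothelin A receptor, had 149 and 129.6 CPM, a log2 ratio of -0.20 (-0.84 to 0.43), and *Ednrb*, the endothelin B receptor, 61.1 CPM (23 UMIs) and 123 CPM (35 UMIs), a log2 ratio of 1.004 (0.20 to 1.83). *S1pr3*, a receptor of sphingosine-1-phosphate, had 21.3 CPM (8 UMIs) and 87.5 CPM (25 UMIs), a log2 ratio of 2.04 (0.85 to 3.401). Those UMIs lay in 8 and 21 members. With at most 5% mitochondrial UMIs *S1pr3* was at 30.2 and 60.4 CPM on 7 and 8 UMIs, with an interval of the log2 ratio of -0.66 to 2.696, and the rest held 1 and 17. *Ghr*, the growth hormone receptor, had 473 CPM (178 UMIs) and 963 CPM (275 UMIs), a log2 ratio of 1.03 (0.75 to 1.31), of which 10 members held 63.3% of the UMIs in the library labelled *Wtap*-BKO. Without the 5% of members with the most UMIs its log2 ratio was 0.34. *Adra1a*, the alpha-1A adrenergic receptor, had 295 CPM (111 UMIs) and 175 CPM (50 UMIs), a log2 ratio of -0.75 (-1.26 to -0.26). It was at -2.12 (-3.24 to -1.16) in members with at most 5% mitochondrial UMIs and at 0.11 (-0.58 to 0.81) in the rest. Of 14 receptor genes, 3 (*Ednrb*, *S1pr3* and *Ghr*) were 2-fold higher and 0 lower, beside 8.02% and 4.72% of all genes. *Ednrb* lay at the limit and was at 0.47 in members with at most 5% mitochondrial UMIs.

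The subunits of soluble guanylate cyclase were lower in members of the library labelled *Wtap*-BKO, and they are named together here after their values were seen. Soluble guanylate cyclase, which answers nitric oxide from the endothelium, is built from an alpha and a beta subunit. The alpha-2 subunit *Gucy1a2* had 1201 CPM (452 UMIs) and 756 CPM (216 UMIs), a log2 ratio of -0.67 (-0.91 to -0.43). The alpha-1 subunit *Gucy1a1* had 255 CPM (96 UMIs) and 175 CPM (50 UMIs), a log2 ratio of -0.54 (-1.07 to -0.035), and the beta-1 subunit *Gucy1b1* had 191 CPM (72 UMIs) and 105 CPM (30 UMIs), a log2 ratio of -0.86 (-1.53 to -0.23). All 3 subunits were lower, and the ranges over 14 alternatives stayed below 0, at -0.76 to -0.41 for *Gucy1a2*, -0.71 to -0.11 for *Gucy1a1* and -1.22 to -0.42 for *Gucy1b1*. Within members over 5% mitochondrial UMIs, however, *Gucy1a2* was at -0.46, *Gucy1a1* at -0.082 and *Gucy1b1* at 0.011, against -0.59, -0.56 and -1.22 at up to 5%. In all other nuclei *Gucy1a2* was at 20.8 and 21.7 CPM, a log2 ratio of 0.060.

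The kinase downstream, *Prkg1*, had a log2 ratio of 0.10 (-0.013 to 0.21). The cyclic nucleotide phosphodiesterase *Pde4d* had 1512 and 1331 CPM, a log2 ratio of -0.18 (-0.38 to 0.0060), and *Pde3a* 534 and 543 CPM, a log2 ratio of 0.024 (-0.29 to 0.33). *Adcy6*, an adenylate cyclase, was the one gene of the list past 2-fold, at 433 CPM (163 UMIs) and 210.1 CPM (60 UMIs), a log2 ratio of -1.04 (-1.495 to -0.61), and it was at -1.36 in other nuclei too. *Rhoa*, a small GTPase of the contractile apparatus, had 90.3 CPM (34 UMIs) and 179 CPM (51 UMIs), a log2 ratio of 0.98 (0.33 to 1.65). Over the 23 genes of the list the median was -0.16, with 9 above 0 and 14 below.

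Notch signalling held the gene whose ratio in members lay furthest above that in other nuclei. *Heyl* (ENSMUSG00000032744, chromosome 4, 123233556 to 123249870) encodes a transcriptional repressor that is a target of Notch. It had 32 UMIs in the members of *Wtap* flox/flox, 85.0 CPM, and 103 UMIs in those of the library labelled *Wtap*-BKO, 361 CPM. The log2 ratio was 2.09 (1.5 to 2.71), and 1.82 to 2.36 over the alternatives. In all other nuclei the order was the opposite, 15.7 and 6.95 CPM, a log2 ratio of -1.17. It was at -1.91 (-3.93 to -0.31) in endothelial nuclei, on 18 and 4 UMIs. In immune nuclei it had 2 and 7 UMIs and in fibroblast nuclei 5 and 28, and both intervals spanned 0. The difference between members and other nuclei, 3.26 on the log2 scale, was the largest positive one among 2317 genes with at least 100 CPM in 1 or both libraries and 20 UMIs among other nuclei, and it was not tested.

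The *Heyl* difference was also present at equal depth and on either side of a 5% mitochondrial share. At 500 UMIs per nucleus, 4.72% of members had a *Heyl* UMI in *Wtap* flox/flox (2.77 to 7.45%) and 18.6% in the library labelled *Wtap*-BKO (13.4 to 24.7%), against 1.01% and 0.228% of immune nuclei. Before thinning the member shares were 8.33% and 31.7%. The log2 ratio was 1.95 among members with at most 5% mitochondrial UMIs and 2.695 among the rest. It was 2.57 in members under 1000 UMIs and 2.07 in deeper ones. The most *Heyl* UMIs in a single member were 7.

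The other Notch genes gave a mixed picture. *Notch3* itself was at -0.13 (-0.33 to 0.070). *Jag1*, a Notch ligand, had 114 and 182 CPM, a log2 ratio of 0.67 (0.062 to 1.29), and *Notch1* 69.1 CPM (26 UMIs) and 144 CPM (41 UMIs), a log2 ratio of 1.06 (0.31 to 1.82). *Rbpj*, the DNA-binding partner of all Notch receptors, had 53.1 CPM (20 UMIs) and 252 CPM (72 UMIs), a log2 ratio of 2.25 (1.52 to 3.04). Here 10 members held 51.4% of the UMIs in the library labelled *Wtap*-BKO, and *Rbpj* was also high in immune nuclei (1492 and 1041 CPM). *Hes1*, another Notch target, was at 74.4 and 59.5 CPM, a log2 ratio of -0.32 (-1.28 to 0.60). *Notch2* had 34.5 CPM (13 UMIs) and 77.0 CPM (22 UMIs), a log2 ratio of 1.16 (0.10 to 2.27). *Heyl*, *Rbpj*, *Notch1* and *Notch2* were thus at least 2-fold higher while *Notch3* and *Hes1* had intervals that spanned 0.

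Growth factors of the vessel wall went both ways. *Pdgfrb* had a log2 ratio of 0.10 (-0.14 to 0.34). *Angpt1*, the angiopoietin through which pericytes act on endothelial Tie2, had 311 and 364 CPM, a log2 ratio of 0.23 (-0.17 to 0.62). *Vegfa* had 1068 CPM (402 UMIs) and 508 CPM (145 UMIs), a log2 ratio of -1.07 (-1.36 to -0.80), but its level in other nuclei was higher, 2630.0 and 1105 CPM, with a log2 ratio of -1.25. *Vegfc* had 16 and 27 UMIs, a log2 ratio of 1.15 (0.21 to 2.14). Of 16 genes in the PDGF, Notch, angiopoietin and VEGF list, 5 were 2-fold higher and 1 lower, beside 8.02% and 4.72% of all genes, with a median of 0.17 in members and 0.26 in other nuclei.

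Of 18 transcription factors of the mural lineage with 20 UMIs, 1 was 2-fold higher and 1 lower, beside 8.02% and 4.72% of all genes. *Tbx5* was at -0.034 (-0.30 to 0.23), *Tbx2* at 276 and 221 CPM, a log2 ratio of -0.32 (-0.80 to 0.14), and *Tbx18*, a classical pericyte factor, at 79.7 and 59.5 CPM, a log2 ratio of -0.42 (-1.37 to 0.48). *Ebf1* was at -0.18 (-0.33 to -0.032), but at -0.24 (-0.43 to -0.045) in members with at most 5% mitochondrial UMIs and at 0.21 (-0.050 to 0.47) in the rest. *Ebf2* was at 1150.2 and 907 CPM, a log2 ratio of -0.34 (-0.57 to -0.12), and *Zeb1*, a repressor of epithelial genes, at 1280.4 and 1054 CPM, a log2 ratio of -0.28 (-0.49 to -0.070). *Nr2f1*, a nuclear receptor of the COUP-TF family, was the one gene past 2-fold downwards, with 143 CPM (54 UMIs) and 66.5 CPM (19 UMIs), a log2 ratio of -1.11 (-1.95 to -0.33). The one gene past 2-fold upwards was *Heyl*, and the median was -0.12.

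**Figure D3:**
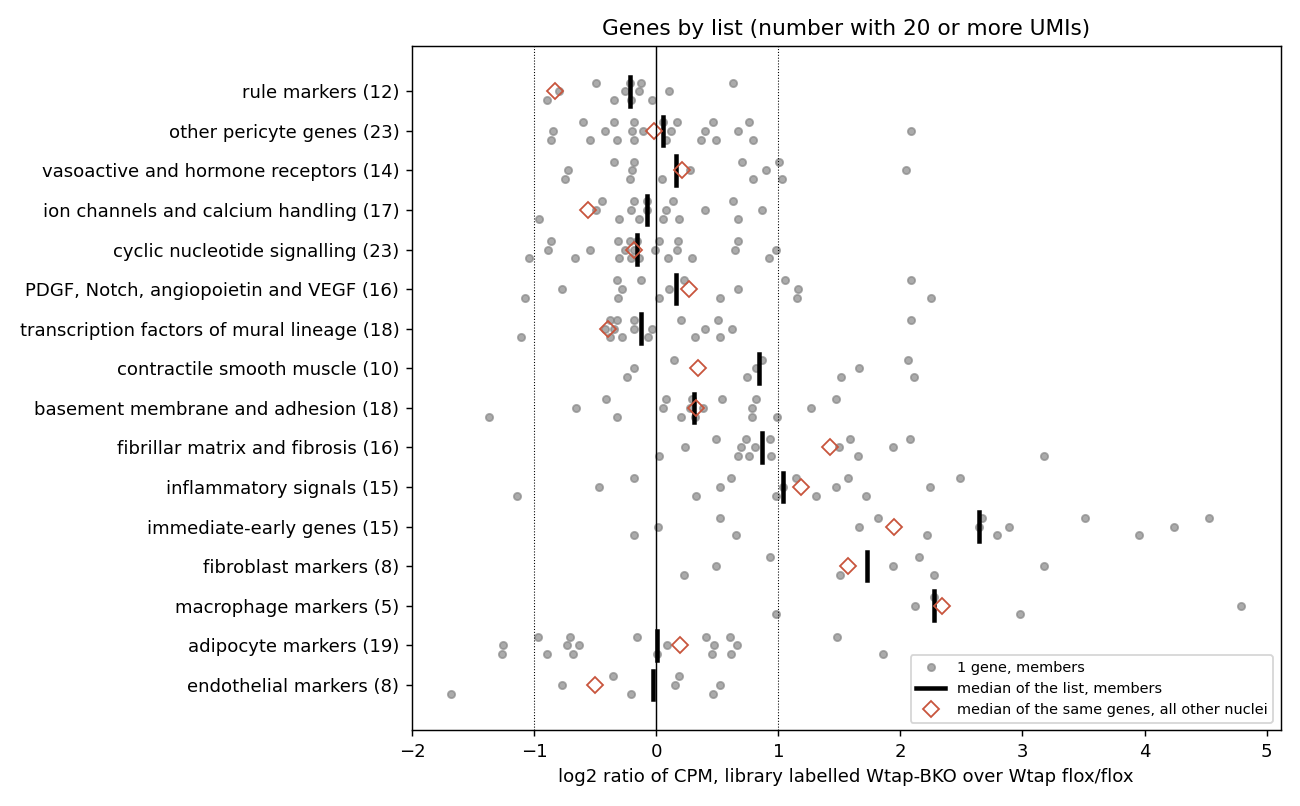
Log2 ratio of CPM (positive where the library labelled Wtap-BKO is higher) for each gene with 20 or more UMIs in the members (grey dots, spread vertically only to separate them), by list with its number of genes. Black bars give the list's median in members and open diamonds the median of the same genes in all other nuclei, all classes pooled. Dotted lines mark 2-fold. Immediate-early genes sit furthest right (median 2.65), while channel, pericyte and mural transcription factor lists centre near 0.

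Contractile genes were sparse, and few members carried them together. Only 21 members in *Wtap* flox/flox and 12 in the library labelled *Wtap*-BKO had 3 or more of the 20 contractile genes. These 21 and 12 nuclei were chosen on the genes now given. *Acta2*, smooth muscle actin, had 7 and 23 UMIs in all members, of which 7 and 20 lay in those nuclei. *Myh11*, smooth muscle myosin, had 44 and 37 UMIs, of which 17 and 28 did. *Rgs5* was at 810.2 and 606 CPM in them and at 991 and 841 CPM in the others, which the rule itself bears on, since each member had to carry 3 rule markers.

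The median log2 ratio of the 10 contractile genes with 20 UMIs was 0.84 in members and 0.34 in other nuclei. Of these genes 4 were 2-fold higher and 0 lower, beside 8.02% and 4.72% of all genes. *Acta2* was at 2.11 (0.85 to 3.58) and *Tagln*, the actin-binding protein transgelin, at 2.06 (0.68 to 3.67), while *Myh11* was at 0.15 (-0.52 to 0.81) and *Mylk*, myosin light chain kinase, at -0.24 (-0.66 to 0.17). In the library labelled *Wtap*-BKO 10 members held 46.8% of the list's UMIs, against 20.7% in *Wtap* flox/flox. When the rule was applied to nuclei thinned to 500 UMIs the median was -0.31 and *Tagln* was at -0.29.

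Of 18 basement membrane and adhesion genes, 2 were 2-fold higher and 1 lower, beside 8.02% and 4.72% of all genes. *Sparc* encodes osteonectin, which binds collagen IV, and had 388 CPM (146 UMIs) and 770.4 CPM (220 UMIs), a log2 ratio of 0.99 (0.68 to 1.302). At 500 UMIs per nucleus 16.9% (13.2 to 21.2%) and 37.7% (30.9 to 44.8%) of members had a *Sparc* UMI, against 2.53% and 2.58% of immune nuclei. *Sparc* was at 0.87 in endothelial nuclei. *Col4a1*, a collagen IV chain, had 419.7 CPM (158 UMIs) and 609 CPM (174 UMIs), a log2 ratio of 0.54 (0.22 to 0.86), and *Col4a2*, its partner, 459.6 CPM (173 UMIs) and 368 CPM (105 UMIs), a log2 ratio of -0.32 (-0.69 to 0.036).

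Laminin chains differed among themselves. *Lamc3*, the gamma-3 chain, was 4.46 log2 units higher in members than in other nuclei in *Wtap* flox/flox, and had 175 CPM (66 UMIs) and 301 CPM (86 UMIs), a log2 ratio of 0.78 (0.30 to 1.27), with 0.012 in other nuclei. *Lamc1* had 93.0 CPM (35 UMIs) and 224 CPM (64 UMIs), a log2 ratio of 1.27 (0.65 to 1.91), and *Lamb2* 109 CPM (41 UMIs) and 42.0 CPM (12 UMIs), a log2 ratio of -1.37 (-2.44 to -0.42). *Lama2*, the alpha-2 chain, was at 1.47 (0.80 to 2.18), but at -0.40 without members carrying 3 genes of another lineage and at -1.03 in members under 1000 UMIs. Over the 18 genes of the list 14 were above 0, with a median of 0.31, near that of the same genes in other nuclei, 0.32.

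Among fibrillar matrix genes *Timp3* stood out by its count. It encodes a matrix-bound inhibitor of metalloproteinases, and had 412 CPM (155 UMIs) and 1236 CPM (353 UMIs), a log2 ratio of 1.59 (1.31 to 1.87) and 1.51 to 1.83 over the alternatives. At 500 UMIs per nucleus 19.7% (15.7 to 24.2%) and 41.2% (34.3 to 48.4%) of members carried it, against 1.52% and 1.90% of immune nuclei. It was at 1.28 in fibroblast nuclei (455 and 1103 CPM) and 0.83 in endothelial nuclei (246 and 438 CPM). Its span on chromosome 10 (86300412 to 86349505) overlaps that of *Syn3*, and how the counting used strand is not given in the sources used here.

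Collagens typical of fibroblasts were higher, in part through few members. *Col1a1*, a chain of type I collagen, had 21.3 CPM (8 UMIs) and 193 CPM (55 UMIs), a log2 ratio of 3.18 (2.102 to 4.46), *Col1a2* 61.1 CPM (23 UMIs) and 235 CPM (67 UMIs), a log2 ratio of 1.94 (1.24 to 2.69), and *Col3a1* 162 CPM (61 UMIs) and 308 CPM (88 UMIs), a log2 ratio of 0.93 (0.44 to 1.42). All 16 matrix genes were above 0 as reported, the lowest being 0.025 for *Col8a1* (-0.0515 when scaled by the median ratio of well-counted genes), and 6 were at least 2-fold higher and 0 lower, beside 8.02% and 4.72% of all genes, with a median of 0.87 in members and 1.42 in other nuclei. The median in other nuclei pools all classes, of which fibroblast nuclei numbered 138 and 422. *Col1a1* had 51.2 and 205 CPM in other nuclei, but 1756 and 1940 CPM in fibroblast nuclei. Its log2 ratio within fibroblast nuclei was 0.14 (-0.042 to 0.33). It was at 1.84 in endothelial, 3.63 in immune (1 and 115 UMIs) and 1.88 in the remaining nuclei. The part of the class mix in the pooled median was not tested. In the library labelled *Wtap*-BKO 10 members held 70.9% of *Col1a1* UMIs. The summed level of 14 fibroblast markers in members was 762 and 2269 CPM, and 10 members held 48.1% of it in the library labelled *Wtap*-BKO. Its 43 members with 3 or more genes of the fibroblast, macrophage or T cell lists compared with 17 in *Wtap* flox/flox. Without them the matrix median was 0.615 and *Col3a1* was at -0.143 (and at -0.11 in members under 1000 UMIs), while *Timp3* stayed within 1.51 to 1.83.

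Immediate-early genes, which cells switch on within minutes of a stimulus, had the highest median log2 ratio of the lists. Of 15 genes, 11 were at least 2-fold higher and 0 lower, beside 8.02% and 4.72% of all genes, with a median of 2.65. Their summed level was 452 and 1968 CPM. *Nr4a1*, an orphan nuclear receptor, had 74.4 CPM (28 UMIs) and 549.8 CPM (157 UMIs), a log2 ratio of 2.89 (2.299 to 3.52), and *Nr4a3*, its relative, 10.6 CPM (4 UMIs) and 165 CPM (47 UMIs), a log2 ratio of 3.95 (2.502 to 5.89). *Egr1*, a zinc-finger factor, had 7.97 CPM (3 UMIs) and 151 CPM (43 UMIs), a log2 ratio of 4.24 (2.596 to 6.57), and *Btg2*, an antiproliferative gene, 5.31 CPM (2 UMIs) and 123 CPM (35 UMIs), a log2 ratio of 4.53 (2.57 to 7.63). *Jun*, *Klf2*, *Klf4* and *Klf6* had intervals that spanned 0, the highest of these ratios being 0.65 for *Klf6*.

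The immediate-early difference was spread over members and was also present in other nuclei. At 500 UMIs per nucleus 2.5% (1.15 to 4.69%) of members carried *Nr4a1* in *Wtap* flox/flox and 27.6% (21.5 to 34.4%) in the library labelled *Wtap*-BKO, against 3.03% and 7.83% of immune nuclei. In all, 23 of 360 and 96 of 199 members had it before thinning. In other nuclei the list's median was 1.94 and *Nr4a1* was at 1.94, with 1.61 in endothelial and 2.41 in fibroblast nuclei. The summed log2 ratio of the list was 2.35 in members with at most 5% mitochondrial UMIs and 1.81 in the rest.

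**Figure D4:**
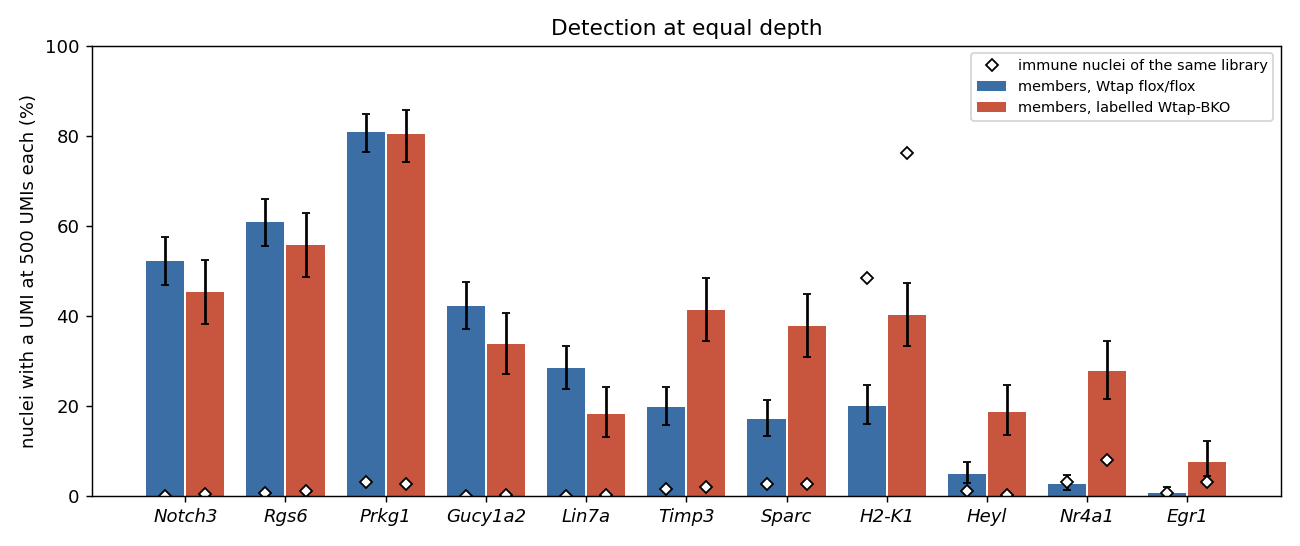
Percentage of members with at least 1 UMI of each gene after every nucleus was thinned to 500 UMIs (bars from 0, exact binomial 95% intervals), with the same share in immune nuclei of the same library as diamonds. Prkg1 is detected in 80.8% and 80.4% of members, whereas Nr4a1 is detected in 2.5% and 27.6% and Heyl in 4.72% and 18.6%.

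Other genes among the 8 highest ratios at 100 CPM were not on that list. *Spry2*, which restrains ERK signalling, had 15.9 CPM (6 UMIs) and 144 CPM (41 UMIs), a log2 ratio of 3.17 (1.93 to 4.698), and *Dusp5*, a nuclear ERK phosphatase, 7.97 CPM (3 UMIs) and 123 CPM (35 UMIs), a log2 ratio of 3.94 (2.28 to 6.29). In other nuclei they were lower in level but in the same order, at 7.31 and 18.3 CPM and 1.54 and 10.5 CPM. *Nnat*, neuronatin, and *Zfpm2*, a cofactor of GATA factors, were also among them, but 10 members held 95.8% and 100% of their UMIs in the library labelled *Wtap*-BKO. *Nnat* overlaps *Blcap*.

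Of 15 inflammatory and antigen presentation genes, 8 were at least 2-fold higher and 1 lower, beside 8.02% and 4.72% of all genes. *H2-K1*, a class I MHC heavy chain, had 425 CPM (160 UMIs) and 1177 CPM (336 UMIs), a log2 ratio of 1.47 (1.19 to 1.75), and *B2m*, its light chain, 207 CPM (78 UMIs) and 459 CPM (131 UMIs), a log2 ratio of 1.15 (0.73 to 1.57). *Irf1*, an interferon regulatory factor, had 31.9 CPM (12 UMIs) and 151 CPM (43 UMIs), a log2 ratio of 2.24 (1.29 to 3.299), and *Stat3* 106 CPM (40 UMIs) and 263 CPM (75 UMIs), a log2 ratio of 1.31 (0.73 to 1.897). The list had a median of 1.04 in members and 1.18 in other nuclei. *H2-K1* was at 1.71 in other nuclei and more abundant there (545 and 1788 CPM). Macrophage markers summed to 135 and 676 CPM in members and to 6694 and 6506 CPM in immune nuclei, and their part in these values was not tested.

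*Il34*, a ligand of the macrophage receptor CSF1R, was higher in members than elsewhere and went the other way between libraries. It had 505 CPM (190 UMIs) and 364 CPM (104 UMIs), a log2 ratio of -0.47 (-0.83 to -0.12), against 10.0 and 12.7 CPM in other nuclei. *Nfkbia*, the inhibitor of NF-kappaB, was lower as well, at 85.0 CPM (32 UMIs) and 38.5 CPM (11 UMIs), a log2 ratio of -1.14 (-2.28 to -0.12). Both stayed below 0 in 14 alternatives, at -0.69 to -0.25 and -1.43 to -0.56.

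Over all genes, 474 of 5909 (8.02%) were at least 2-fold higher in members of the library labelled *Wtap*-BKO and 279 (4.72%) lower, with a median log2 ratio of 0.058 in members and 0.056 in other nuclei. Of the 474, 216 were 2-fold higher in other nuclei too, and 45 were below 0 there. Of the 279, 41 were 2-fold lower in other nuclei and 80 were above 0 there. The matching shares of all 5909 genes in other nuclei are not given here. These overlaps therefore cannot be read as shared with other nuclei or as particular to the members. Scaled by the median ratio of well-counted genes, the numbers were 415 and 358, which takes the higher share of both from 62.9% to 53.7%. With at most 5% mitochondrial UMIs they were 284 and 284. Of the genes named here as past 2-fold, *Ednrb*, *Lamb2* (-0.61), *Nfkbia* (-0.55) and *Nr2f1* (-0.86) were under 2-fold in these members. Under 2-fold in members over 5% were *Adcy6* (-0.90), *B2m* (0.94), *Notch1* (0.996), *Tagln* (0.92), *Vegfa* (-0.99), *Lama2* (0.45) and *Zfpm2* (0.60).

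The 8 lowest ratios of genes with 100 CPM in a library included genes enriched in members of *Wtap* flox/flox. *Pcdh18*, a protocadherin of cell adhesion, had 146 CPM (55 UMIs) and 24.5 CPM (7 UMIs), a log2 ratio of -2.58 (-3.96 to -1.44). It was 5.66 log2 units above other nuclei in *Wtap* flox/flox and 3.80 in the library labelled *Wtap*-BKO. *Serpini1*, the protease inhibitor neuroserpin, had 298 CPM (112 UMIs) and 84.0 CPM (24 UMIs), a log2 ratio of -1.82 (-2.52 to -1.18), and was 5.76 and 4.84 above. *Fst*, follistatin, an antagonist of activins, had 109 CPM (41 UMIs) and 31.5 CPM (9 UMIs), a log2 ratio of -1.79 (-3.02 to -0.73), whereas in other nuclei it was at 1.11. Fibroblast nuclei held 11 and 136 of its 89 and 252 UMIs outside the members. By class *Fst* was at 1.26 in endothelial, 1.14 in fibroblast, -0.048 in immune and 0.31 (-0.14 to 0.77) in the remaining nuclei. In members all 3 genes were below 0 in each of 14 alternatives, the nearest to 0 being -2.01, -1.39 and -0.49.

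The other low ratios were in genes more abundant outside the members. *Ppargc1a*, the coactivator of thermogenic and mitochondrial genes, had 249.7 CPM (94 UMIs) and 52.5 CPM (15 UMIs), a log2 ratio of -2.25 (-3.14 to -1.45), against 795 and 289.7 CPM in other nuclei. *Pmepa1*, an inhibitor of TGF-beta signalling, had 409 and 105 CPM in members and 1195 and 264 CPM elsewhere, and *A530020G20Rik* 130.2 and 17.5 CPM and 375 and 26.1 CPM. *Apoc1*, an apolipoprotein, and *Mmaa*, of vitamin B12 metabolism, were at -1.75 and -2.53. The summed level of 19 adipocyte markers in members was 11189 and 11804 CPM, above that of the 12 rule markers (9396 and 8215 CPM), and 22025 and 22528 CPM in other nuclei. *Fasn*, fatty acid synthase, was at 1.86 (1.43 to 2.31) in members and 1.96 in other nuclei, and *Cidea*, a lipid droplet protein, at -1.26 (-1.66 to -0.88) and -0.78. The part of adipocyte RNA in these values was not tested.

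For some genes the ratio in members lay far from that in other nuclei. Other nuclei pool all classes, of which immune nuclei numbered 198 and 1316 and fibroblast nuclei 138 and 422. The part of that mix in the ratios below was not tested. *Slc8a1*, the sodium-calcium exchanger, had 244 and 231 CPM in members, a log2 ratio of -0.081 (-0.56 to 0.39). In other nuclei it had 32.4 and 213 CPM, a log2 ratio of 2.72, and immune nuclei held 126 and 1838 of its 337 and 2909 UMIs there. By class it was at 2.66 in endothelial, 1.52 in fibroblast, 0.65 in immune and 1.90 in the remaining nuclei. *Dock10*, a guanine nucleotide exchange factor, had 523 and 434 CPM, a log2 ratio of -0.27 (-0.61 to 0.062). In other nuclei it had 49.7 and 229.5 CPM, a log2 ratio of 2.21, above that of each class. By class it was at 1.45 in endothelial, 0.021 in fibroblast, 0.41 in immune and 1.64 in the remaining nuclei. *Trim2*, a ubiquitin ligase, had 125 and 144 CPM in members, a log2 ratio of 0.20 (-0.44 to 0.84), and 174 and 57.1 CPM in other nuclei. *Slco3a1*, an organic anion transporter, and *Myof*, the membrane repair protein myoferlin, were at -0.53 (-1.09 to 0.0086) and -0.94 (-1.91 to -0.047) in members and at 2.19 and 2.303 in other nuclei. By class *Slco3a1* was at 1.46 in endothelial, 0.82 in fibroblast, 1.04 in immune and 1.40 in the remaining nuclei. *Myof* was at 1.67, 1.40, 0.49 and 1.66 in the same order, so for both genes the pooled ratio lay above that of each class. The *Myof* ratio was -3.05 in members with at most 5% mitochondrial UMIs (29 and 2 UMIs) and 0.45 in the rest (9 and 13 UMIs), opposite directions.

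**Figure D5:**
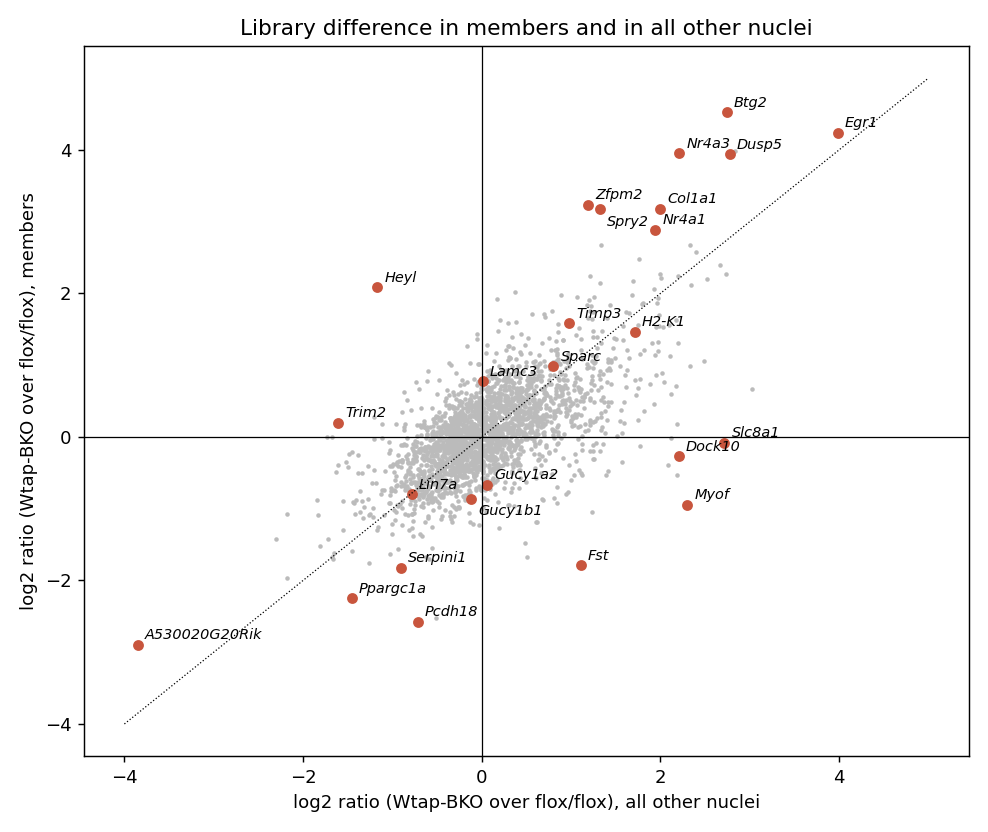
Log2 ratio of CPM (positive where the library labelled Wtap-BKO is higher) in members (vertical axis) and in all other nuclei (horizontal axis), 1 dot per gene with at least 100 CPM in the members of at least 1 library; the dotted line marks equal ratios. Heyl lies at 2.09 in members and -1.17 elsewhere, while Egr1 (4.24 and 3.99) lies near the line and Myof, Slc8a1, Dock10 and Fst lie below it. Horizontal values pool all classes of other nuclei, of which immune nuclei numbered 198 and 1316 and fibroblast nuclei 138 and 422. For Myof, Slc8a1 and Dock10 the pooled ratio lay above that of each class.

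The m6A machinery was thinly counted in the members. Of 10 genes, 6 had 20 or more UMIs, and their median log2 ratio was -0.085. *Fto*, an m6A eraser, had 244 CPM (92 UMIs) and 242 CPM (69 UMIs), a log2 ratio of -0.016 (-0.49 to 0.45), and *Zc3h13*, a partner of WTAP in the writer complex, 125 CPM (47 UMIs) and 140.1 CPM (40 UMIs), a log2 ratio of 0.17 (-0.48 to 0.81). *Rbm15*, another partner, had 19 and 6 UMIs, a log2 ratio of -1.26 (-2.88 to 0.12). All 6 intervals spanned 0. Endothelial markers summed to 1071 and 1005 CPM in members, T cell markers to 31.9 and 168 CPM and Schwann markers to 178 and 238 CPM. Skeletal muscle markers summed to 255 and 144 CPM. Among them *Neb*, nebulin, had 194 CPM (73 UMIs) and 105 CPM (30 UMIs), a log2 ratio of -0.88 (-1.55 to -0.25), against 5.10 and 8.20 CPM in other nuclei.

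Of the adipogenic regulators, *Pparg*, the master factor of adipocytes, had 1254 CPM (472 UMIs) and 907 CPM (259 UMIs) in members, a log2 ratio of -0.47 (-0.69 to -0.25), and 2449 and 1063 CPM in other nuclei. *Tcf7l2*, an effector of Wnt signalling, had 379.9 CPM (143 UMIs) and 613 CPM (175 UMIs), a log2 ratio of 0.69 (0.36 to 1.02), and *Zfp423*, a preadipocyte factor also found in adipose mural cells, 133 CPM (50 UMIs) and 158 CPM (45 UMIs), a log2 ratio of 0.25 (-0.37 to 0.86). *Dlk1*, a preadipocyte protein, had 16 and 6 UMIs. The 12 genes with 20 UMIs had a median of -0.030, of which 1 was 2-fold higher and 2 were lower, beside 8.02% and 4.72% of all genes.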

How the data were processed

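Nuclei of frozen iBAT were profiled with 10x Chromium 3' v3.1 chemistry, 1 library per genotype, each from 4 pooled mice. The deposited values are raw UMI counts per gene and nucleus, which the authors made with Cell Ranger 5.0.0, per the file headers. The submitters' processing notes name mm10, and how introns and strand were counted is not given in the sources used here. The deposited nuclei had at least 500 UMIs, and the libraries held 10770604 UMIs (*Wtap* flox/flox) and 13945673 UMIs (*Wtap*-BKO).

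Members and gene lists were chosen with earlier results of these data known. UMIs were summed over the members of a library and divided by their total (CPM). Log2 ratios have exact conditional intervals, levels exact Poisson and shares exact binomial (Clopper-Pearson) intervals, all at 95% and covering counting error only. No test was made, since each genotype had 1 library. Genes with 20 or more member UMIs entered the counts, and 2-fold was the limit of size. Endothelial, fibroblast and immune nuclei were taken by marker genes. Genes were named where they were rule markers, Wtap, the most abundant or most different of a list, the 8 highest and 8 lowest ratios and the 15 most enriched at 100 CPM, and the 5 largest differences from other nuclei each way. Further list members were named after their values were seen. Scrublet (scanpy 1.11.5) called 0 doublets in either library and so had not worked. No doublets were removed, and an alternative left out the 721 and 616 nuclei with the highest scores. Coordinates are from RefSeq (GRCm38). Python 3.11.15, numpy 2.4.6, scipy 1.17.1 and pandas 2.3.3 were used, and the ratio step was checked on simulated counts. A few genes that met the naming rule are not reported here.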

Additional observations from a re-analysis of the deposited data

How the results depend on the processing

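No paired analysis was possible because each genotype had 1 library without replicate numbers, and for the same reason no library could be left out. Of 16 alternatives, 3 were chosen after seeing the data: leaving out the 5% of members with the most UMIs, weighting nuclei equally, and leaving out members with 3 genes of another lineage. Shares of nuclei (*Wtap* flox/flox, then the library labelled *Wtap*-BKO) were 3.22% and 1.93% with at least 4 markers, 5.08% and 3.29% with at least 2, 3.4% and 1.87% with no exclusion gene, 3.03% and 1.61% with the rule on thinned nuclei, and 2.79% and 1.82% among nuclei of 1000 UMIs. Without the highest doublet scores the former was 3.41%. With at most 10% and 5% mitochondrial UMIs the latter was 3.31% and 4.62%, and the log2 ratio of shares -0.272 and 0.267. Members per 100 endothelial nuclei were 41.1 and 25.6 (at least 4 markers), 65.8 and 44.3 (at least 2), 43.4 and 24.9 (no exclusion gene), 80.3 and 43 (5% mitochondrial), 39.9 and 48.6 (1000 UMIs), 63.2 and 31.4 (10% mitochondrial) and 70.1 and 29.7 (thinned).

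Genes at least 2-fold higher numbered 757 with at least 2 markers, 284 with 5% mitochondrial UMIs and 289 with the thinned rule. A minimum of 50 UMIs, which tests fewer genes, gave 123 higher and 73 lower, and 1 UMI per library gave 1992 and 1071. Nuclei of 1000 UMIs gave 172 lower. The median of the rule markers was -0.0143 (thinned rule), 0.00877 (1000 UMIs) and -0.00723 (without members of another lineage). The contractile median was -0.309 (thinned) and the channel median 0.298 (1000 UMIs). The fibrillar matrix median was 0.653 with 4 markers, 0.624 with no exclusion gene, 0.428 thinned and 0.615 without members of another lineage. Among genes whose interval as reported lay off 0, those that turned sign were *Abcc9* (0.0435), *Rgs5* (0.0153), *Lama2* (-0.4), *Col3a1* (-0.143), *Thbs1* (-0.433) and *Egfr* (-0.00401) without members of another lineage. With the thinned rule they were *Tagln* (-0.295), *Npr3* (-0.36), *Col3a1* (-0.16), *Thbs1* (-1.62), *Lpl* (-0.0167) and *Egfr* (-0.0324). With no exclusion gene they were *Npr3* (-0.0257), *Lama2* (-0.159), *Eln* (-1.01) and *Egfr* (-0.199). *Npr3* was also at -0.367 without the highest doublet scores, -0.253 without the deepest members and -0.111 with equal weights, and *Adipoq* at -0.0502 with 5% mitochondrial UMIs. The causes were not tested. Of 252 genes, 125 had an interval off 0, and over the alternatives the range of 96 genes held 0, 11 of them with an interval off 0. Of 3528 gene values, 153 moved beyond the interval as reported without such a turn.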
